A study of Mus musculus with 14 samples.

Results

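The 9 genes described here encode transcription factors known to act on the angiotensinogen promoter. They are Cebpa, Cebpb, Stat3, Rela, Hnf4a, Esr1, Usf1, Usf2 and Sp1. They were picked out of the tables by gene symbol, from a list drawn up with earlier results of these data known, and each was set beside Agt, the mouse angiotensinogen gene. All 9 were found in the liver count table of 19660 genes and in the kidney count table of 20203 genes. The count tables share 17600 genes.

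RNA came from liver and kidney of adult male transgenic mice, 12 weeks old, fed a normal diet (called Basal in the titles) or given high salt. Every library, controls included, carries the genotype label Hap -6A, which stands for the -6A promoter haplotype of a human angiotensinogen transgene. Non-transgenic mice and other haplotypes were not analysed here, so all the values below are from a transgenic background. Each diet had 4 libraries in liver and 3 in kidney, 14 in all. No label states how long high salt was given, how many transgenic lines were used or whether each library was a separate mouse. The p-values therefore measure only the spread between these libraries, which may be technical. The counts are of the mouse gene, and reads of the human transgene that resemble it could have been counted with it.

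Angiotensinogen is the precursor from which renin and angiotensin-converting enzyme make angiotensin II, a peptide that constricts vessels and retains sodium, and hepatocytes make most of it. C/EBP-alpha (Cebpa) and HNF4-alpha (Hnf4a) are factors that set the hepatocyte programme. C/EBP-beta (Cebpb), STAT3 and the p65 subunit of NF-kappa-B (Rela) carry cytokine signals to acute phase genes, of which angiotensinogen is one. USF1 and USF2 pair with each other on E-boxes, SP1 binds GC boxes in a large number of promoters, and the estrogen receptor alpha (Esr1) carries the estrogen signal. STAT3, p65 and the estrogen receptor are activated by phosphorylation, release from an inhibitor or ligand, steps that an mRNA count does not show.

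The mouse Agt promoter is shown because it is where such factors would bind. The 250 bases before the annotated start of Agt, from RefSeq on GRCm38.p6 at chr8:124569707-124569956, minus strand, read as follows, with matches to the motifs searched in capitals.
Agt promoter: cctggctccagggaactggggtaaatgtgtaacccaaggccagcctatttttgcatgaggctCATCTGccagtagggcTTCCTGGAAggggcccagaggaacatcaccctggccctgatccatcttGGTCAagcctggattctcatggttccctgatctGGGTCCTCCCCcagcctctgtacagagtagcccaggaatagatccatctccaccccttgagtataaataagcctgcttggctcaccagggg
With the base before the start counted as -1, the first capitals (-188 to -183) match CANNTG, the general E-box, which 66.2% of 32851 RefSeq promoters of the same length hold. The second (-172 to -164) match TTCNNNGAA, a STAT motif found in 7.02% of promoters. The third (-124 to -120) match GGTCA, a half-site of nuclear receptors present in 35.2%. The last (-91 to -81) hold overlapping matches to a loose NF-kappa-B motif, GGG and CC with any 5 bases between them, present in 45.8%. Both strands were searched, and any CACGTG match would also be a CANNTG match.

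No match in this window was found for CACGTG, the E-box preferred by USF (6.02% of promoters), TTGCNNAA for C/EBP (9.56%), GGGCGG for SP1 (32.7%) or CAAAG for HNF4 (48.6%). These letters describe the mouse window only. The human promoter carried by the transgene was not analysed here. Among the members, the Sp1 promoter itself held 4 GGGCGG matches, and 4.09% of promoters held at least as many. The Cebpb promoter held more, starting at -238, -234, -202, -191 and -30. Matches were also found in a promoter of Stat3, Usf1, Hnf4a and Rela. Usf2 had no promoter entry and was not searched.

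Total gene counts ranged from 37267778 to 51487382 per liver library and from 16046094 to 22004927 per kidney library. The lowest count of a member in any library was 37, for Cebpb in kidney, and in liver it was 292, for Esr1. Normal diet liver libraries are called 1 to 4. The high salt liver columns are numbered differently from the titles and are called HS5 to HS8 here. Of the liver pairs within a diet, HS5 and HS6 differed least, with a chi-square per gene of 1.59, while the 11 others lay between 9.85 and 62.7. They entered the tests as separate libraries. Mitochondrial transcripts took 2.30% and 2.06% of the counts in normal diet liver libraries 1 and 2, 11.3% to 29.6% in the other 6 liver libraries and 23.5% to 41.2% in kidney (95% Wilson intervals reach at most 0.0223 percentage points). Markers matched the tissue labels. The sum of 6 tubule markers, such as Umod and Slc34a1, was 3372 to 5369 counts per 1000000 counts (CPM) in kidney and 0.547 to 8.81 CPM in liver, where 5 of them were listed. The sum of 5 hepatocyte markers was at least 49169 CPM in liver and 825 to 1624 CPM in kidney, most of it Cyp2e1.

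The members were first compared per length within each tissue, as CPM per 1000 bases of merged exon on the normal diet. In liver, Hnf4a (92.0 ± 17.6) and Cebpa (74.7 ± 13.6) stood at the top with ranges that overlapped each other and lay above those of all other members (SD, n = 4). Usf2 (14.6), Cebpb (14.2), Rela (7.45), Usf1 (6.81) and Stat3 (6.75) followed, and each overlapped its neighbour in this order. Sp1 (1.74 ± 0.198) and Esr1 (0.736 ± 0.200) were lowest, each apart from its neighbour.

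The kidney order was different below the first place. Hnf4a again led, at 64.7 ± 29.3 CPM per kb, and Usf2 came second at 7.76 ± 1.31 (SD, n = 3). Sp1 (3.26), Usf1 (3.17), Cebpa (3.02), Rela (1.94), Cebpb (1.90) and Stat3 (1.53) formed a series of overlapping neighbours, and Esr1 (0.957 ± 0.0890) was last. HNF4-alpha is also a factor of the proximal tubule, which makes up much of the kidney. With the length of the principal transcript in place of all exons, Stat3 moved from place 7 to 4 in liver and from 8 to 5 in kidney, and Cebpb was last in kidney.

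**Figure D1:**
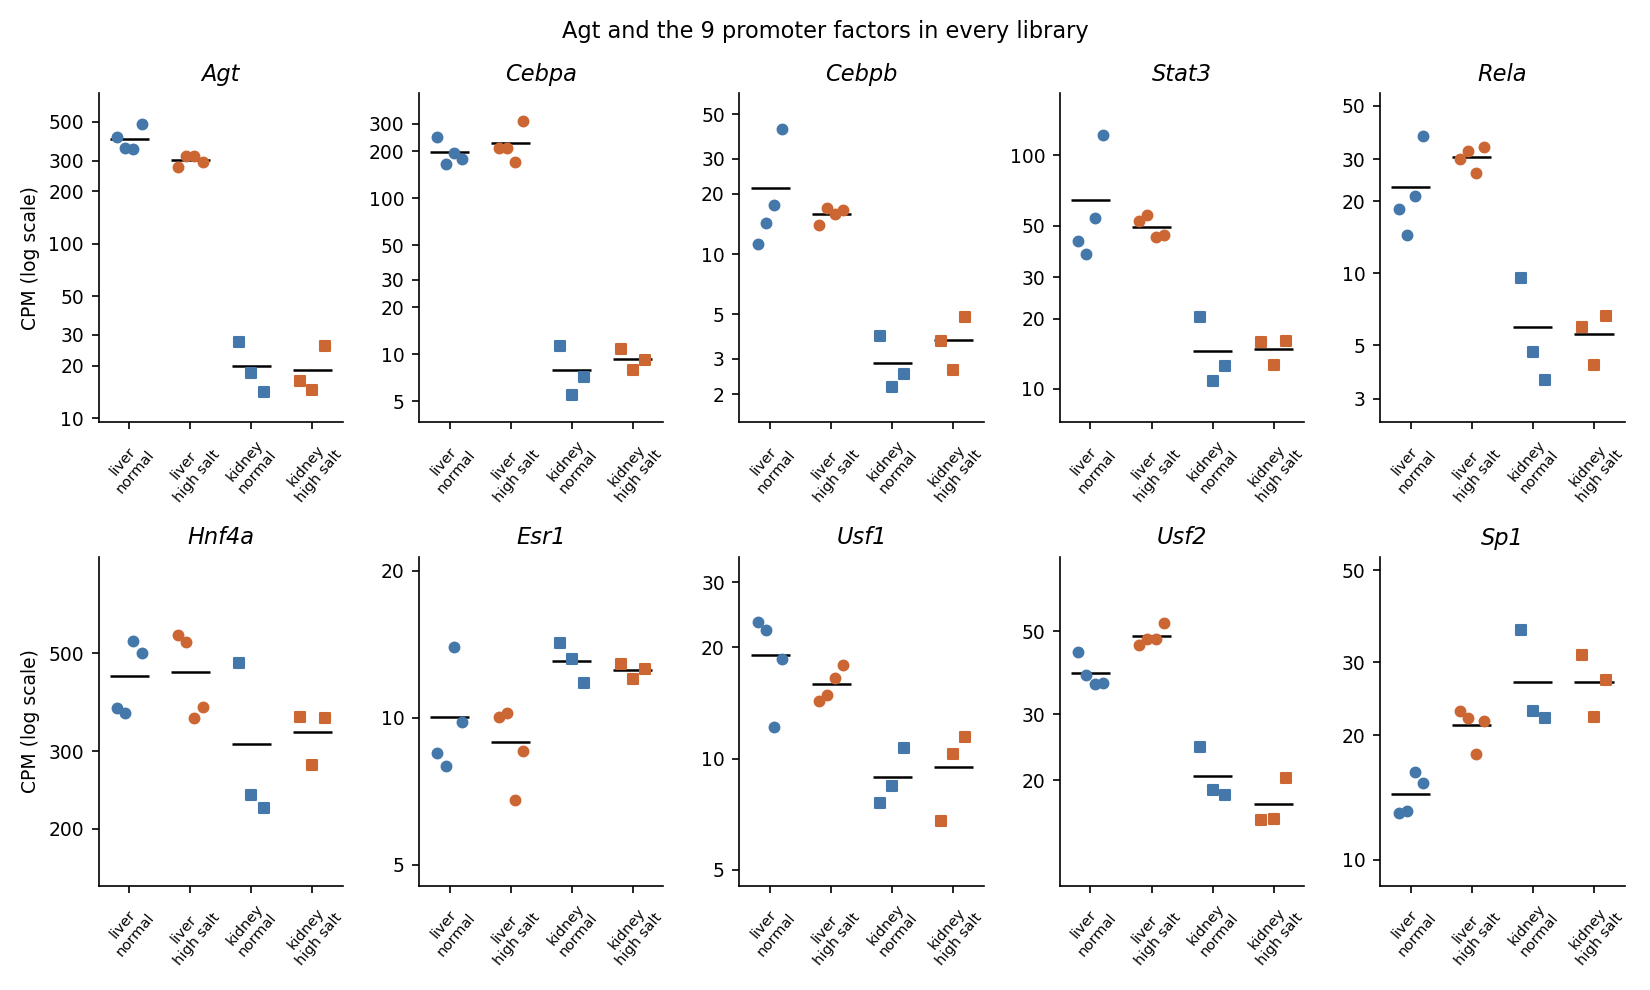
CPM of Agt and the 9 factors in every library, on a log axis, with liver as circles, kidney as squares, normal diet in blue and high salt in orange. Each point is 1 library, each bar the mean of its group, and CPM was scaled within each tissue. Usf2 and Sp1 show high salt liver points above every normal diet liver point, and Agt shows them below.

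The tissues were then compared on the normal diet in 1 fit of all 14 libraries over the shared genes, where means are CPM of that fit. With the quasi-likelihood test of edgeR, 7 of the 9 factors were lower in kidney and 0 were higher, where 32.9% of the 16633 genes tested were lower, 32.2% were higher and 65.1% were called in all. The median difference of the 9 members, kidney minus liver, was -1.65 on the log2 scale, against -0.02 over all genes. In bulk RNA, fewer cells of a type and less RNA per cell cannot be told apart. Each tissue also had its own count table, column naming and range of depth, so tissue cannot be told apart from library set.

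The largest difference among the members was that of Cebpa, which averaged 234 ± 48.1 CPM in liver (SD, n = 4) and 6.50 ± 2.42 in kidney (SD, n = 3). This 36.0-fold difference (log2 -5.17, SE 0.34, edgeR adjusted p = 5.06e-09) stood beside that of Agt itself, which was 29.3-fold lower in kidney (473 ± 66.6 against 16.1 ± 5.39 CPM, log2 -4.87, SE 0.31, edgeR adjusted p = 4.03e-09). Hnf4a, the other hepatocyte factor, differed only 2.06-fold (524 ± 78.5 against 254 ± 115 CPM, log2 -1.04, SE 0.30, edgeR adjusted p = 0.00639). Without kidney normal diet library 3 the Hnf4a difference was -0.82 and missed the threshold (edgeR adjusted p = 0.0550).

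The 3 factors of cytokine signalling were also lower in kidney. Cebpb averaged 24.9 ± 15.5 CPM in liver and 2.33 ± 0.741 in kidney, a 10.6-fold difference (edgeR adjusted p = 3.38e-06). Stat3 was 6.34-fold lower (75.1 ± 43.1 against 11.8 ± 4.13 CPM) and Rela 5.53-fold lower (26.9 ± 10.8 against 4.85 ± 2.59 CPM). Their wide liver SDs come with library 4, described below, and all 3 stayed past the threshold without it.

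Of the broadly expressed factors, both USF genes were lower in kidney, Usf1 3.14-fold (22.8 ± 6.83 against 7.27 ± 1.33 CPM, edgeR adjusted p = 4.83e-05) and Usf2 2.74-fold (46.0 ± 5.90 against 16.8 ± 2.79 CPM, edgeR adjusted p = 4.11e-06). Sp1 and Esr1 did not pass the test. Sp1 was the one member with a higher kidney mean (21.9 ± 6.32 against 17.0 ± 1.27 CPM, log2 0.36, SE 0.20, edgeR adjusted p = 0.114). Esr1 had close means (10.7 ± 0.959 in kidney, 11.9 ± 2.88 in liver, log2 -0.15, SE 0.21, edgeR adjusted p = 0.527).

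**Figure D2:**
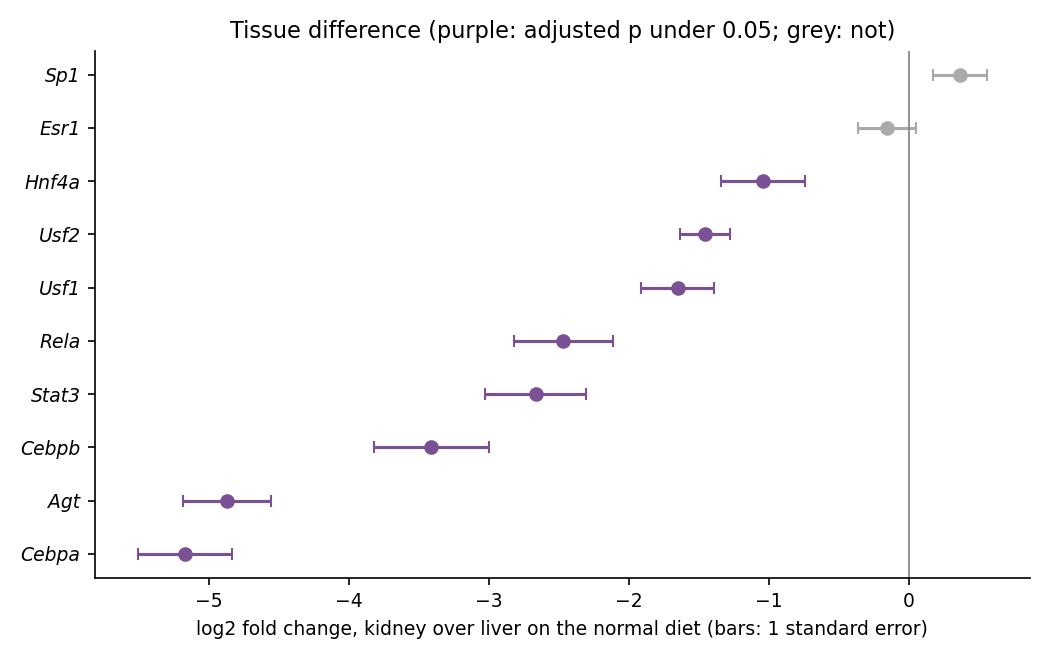
Difference between the tissues on the normal diet (log2 of kidney over liver, with its standard error) for Agt and the 9 factors, from the fit of all 14 libraries. Cebpa (-5.17) lies next to Agt (-4.87), and Sp1 (0.36) is the one member to the right of 0.

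Of the 94 genes in 9 lists around these factors, 85 were tested between the tissues, with 20 higher and 41 lower in kidney (all genes 32.2% and 32.9%). Of 12 textbook targets of HNF4-alpha and C/EBP-alpha, 11 were tested and 10 were lower in kidney, with a median log2 difference of -7.58. Among other hepatocyte nuclear factors and their partners, 5 of 6 tested were lower, with a median of -5.00. The NF-kappa-B list had 7 of 11 lower (median -1.29), the STAT3 list 6 lower and 2 higher of 11 (-0.55), the C/EBP list 4 of 6 lower (-1.25) and the E-box partners 3 lower and 2 higher of 9 (-0.80). Other lists went the other way or were mixed. Estrogen receptor relatives and cofactors had 5 of 7 higher in kidney and 0 lower (median 0.83), the SP and KLF family 3 higher and 1 lower of 6 (1.09), and the other promoter factors 9 higher and 7 lower of 23 (0.41).

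High salt was compared with the normal diet in liver first. None of the 9 factors passed the edgeR test (0 of 9, where 1.0% of 15130 genes passed), and 2 had an unadjusted p under 0.05, where 21.2% of genes did. By DESeq2 1 member passed, Sp1, where 7.42% of genes passed, and limma on the deposited normalized values called 0 members. In 2 members, Sp1 and Usf2, every high salt library lay above every normal diet library, as in 6.44% of genes. In 0 members did every one lie below, as in 6.05%. The members' median log2 difference was 0.03, against -0.02 over all genes.

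Agt is the row these factors are set beside. Its level in liver was 411, 354, 348 and 485 CPM in normal diet libraries 1 to 4 and 276, 317, 318 and 293 CPM in HS5 to HS8. All high salt values lay below all normal diet values, with means of 301 ± 20.3 and 400 ± 63.8 CPM (SD, n = 4 each). The log2 difference of -0.41 (SE 0.17) missed the threshold (edgeR adjusted p = 0.207 over all genes). The two-sided exact permutation test of this single gene gave p = 0.0286, the smallest that 4 against 4 allows, and 0.0571 adjusted over the 2 tissues.

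The hepatocyte factors showed no separation of the diets. Cebpa was at 248, 167, 195 and 178 CPM on the normal diet and 209, 211, 171 and 312 CPM on high salt. The groups overlapped, with the highest value in HS8 (log2 difference 0.20, SE 0.22, edgeR adjusted p = 0.617). Hnf4a was at 376, 367, 532 and 502 CPM on the normal diet and 551, 531, 357 and 378 CPM on high salt. Each diet held 2 low and 2 high libraries, and the means were 444 ± 84.9 and 454 ± 101 CPM (SD, n = 4 each; log2 difference 0.03, SE 0.22, edgeR adjusted p = 0.946). The low libraries, 1, 2, HS7 and HS8, carry the lower S numbers of the deposited column names, whose meaning no label gives. Esr1 (6.80 to 8.57 and 9.80 to 13.996 CPM) and Stat3 (37.6 to 45.6 and 52.4 to 122.8 CPM) split the same libraries without overlap. This split was not fitted as a block, and its part in the values was not tested. The sum of the 5 hepatocyte markers was 49169 to 76839 CPM on the normal diet and 87460 to 105744 CPM on high salt, with no overlap. Alb carried this sum (32441 to 50637 and 67824 to 85226 CPM), while Cyp2e1 was lower in every high salt library (6511 to 9535 and 3925 to 5525 CPM) and the other 3 markers overlapped. The sum of 4 stellate cell and fibroblast markers was 52.6 to 100.05 and 108 to 124 CPM. Dcn carried this sum (41.4 to 80.3 and 90.2 to 94.9 CPM). Col1a1 was also higher in every high salt library, while Des and Lrat overlapped. The part of all these markers in the liver values was not tested.

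The cytokine factors Cebpb, Stat3 and Rela shared 1 high library. Cebpb was at 11.2, 14.3, 17.5 and 42.3 CPM in normal diet libraries 1 to 4 and between 13.97 and 17.01 CPM on high salt. Library 4 was thus 2.41 times the next normal diet library, while the high salt values sat inside the range of the other 3. Stat3 was likewise highest in library 4, with 42.99, 37.6, 53.9 and 122.8 CPM on the normal diet and 52.4, 55.5, 44.8 and 45.6 CPM on high salt. Here library 4 was 2.28 times the next normal diet library. Neither gene passed the test (log2 differences -0.43, SE 0.36, and -0.38, SE 0.34, edgeR adjusted p = 0.509 and 0.537). Without library 4 both turned sign, to 0.13 each, and without libraries 1 and 2 they were -0.91 and -0.83 (edgeR adjusted p = 0.199 and 0.218).

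Rela was at 18.6, 14.4, 21.01 and 37.6 CPM on the normal diet and at 30.02, 32.6, 26.2 and 33.6 CPM on high salt. Only library 4 of the normal diet reached the high salt range (log2 difference 0.42, SE 0.27, edgeR adjusted p = 0.390). Without library 4 the Rela difference was 0.75 (edgeR adjusted p = 0.0536), and every high salt library lay above the 3 remaining ones, as in 11.4% of genes. Without libraries 1 and 2, where Rela was low, the difference was 0.065 (edgeR adjusted p = 0.919).

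Liver library 4 stood apart in acute phase genes as well. The sum of 6 of them (Saa1, Saa2, Orm1, Hp, Lcn2 and Crp) was 58822 CPM there, 3304 to 5841 CPM in the other normal diet libraries and 1849 to 2450 CPM on high salt. Its sum of 11 immune cell markers was 244 CPM, against 116 to 162.4 CPM in the other normal diet libraries and 75.7 to 140 CPM on high salt. Of these markers S100a8 was at 18.2 and S100a9 at 31.7 CPM in library 4, and at most 0.777 CPM in any other liver library. C1qa, Clec4f, Cd68 and Itgam were also highest in library 4, while Ptprc, Adgre1, Lyz2, Cd3e and Cd79a were not. Agt was also highest in library 4, at 1.18 times the next library. Their part in these values was not tested.

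**Figure D3:**
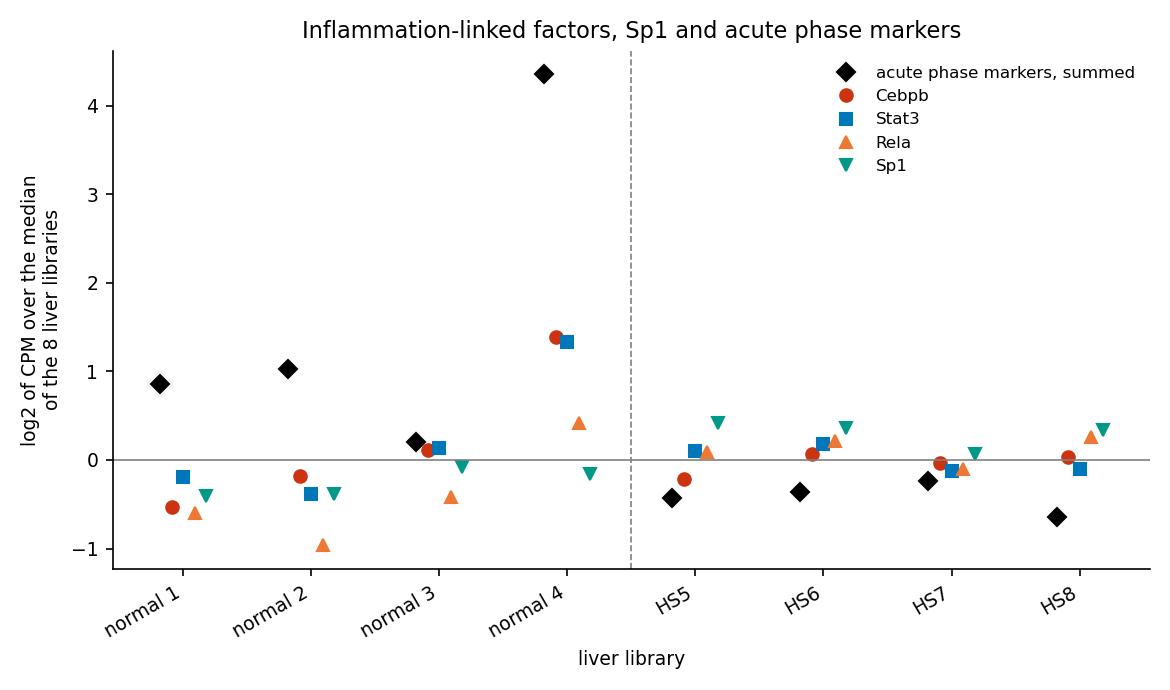
Cebpb, Stat3, Rela and Sp1 and the sum of 6 acute phase genes in each liver library, as the log2 of CPM over the median of the 8 libraries. Points are offset sideways so that they do not hide each other. In normal diet library 4 all of them but Sp1 are at their highest of the 8.

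The broadly expressed factors Usf2 and Sp1 were the members whose diets did not overlap. Usf2 was at 43.8, 38.2, 36.2 and 36.5 CPM on the normal diet and 45.8, 47.7, 47.7 and 52.5 CPM on high salt. The lowest high salt library was thus just above the highest normal diet library (means 38.7 ± 3.55 and 48.4 ± 2.84 CPM, SD, n = 4 each; log2 difference 0.32, SE 0.13, edgeR adjusted p = 0.197). Sp1 was at 12.96, 13.1, 16.3 and 15.3 CPM on the normal diet and 22.9, 22.01, 18.001 and 21.6 CPM on high salt. All high salt values were above, by 1.47-fold in the mean (14.4 ± 1.64 and 21.1 ± 2.16 CPM, SD, n = 4 each).

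The Sp1 difference of 0.55 on the log2 scale (SE 0.15) had the smallest p of the members, with an edgeR adjusted p of 0.0981. It stayed between 0.42 and 0.61 over 17 alternatives, with adjusted p between 0.0138 and 0.299, and passed in 1 of them (DESeq2). With the alike libraries HS5 and HS6 summed to 1, the difference was 0.52 for Sp1, 0.34 for Usf2 and -0.40 for Agt (edgeR adjusted p = 0.291, 0.386 and 0.411). Usf1, the partner of Usf2, did not share its pattern. It was at 23.4, 22.3, 12.1 and 18.6 CPM on the normal diet and 14.3, 14.9, 16.5 and 17.9 CPM on high salt, so the high salt values lay inside the normal diet range (log2 difference -0.27, SE 0.21, edgeR adjusted p = 0.472). Libraries 1 and 2, the pair with few mitochondrial reads, held the 2 highest Usf1 values. Without them the Usf1 difference was 0.05.

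Esr1 was the lowest member in liver, at 8.49, 7.96, 13.996 and 9.80 CPM on the normal diet and 10.1, 10.2, 6.80 and 8.57 CPM on high salt. The groups overlapped, with the highest value in normal diet library 3 and the lowest in HS7 (log2 difference -0.17, SE 0.22, edgeR adjusted p = 0.670).

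**Figure D4:**
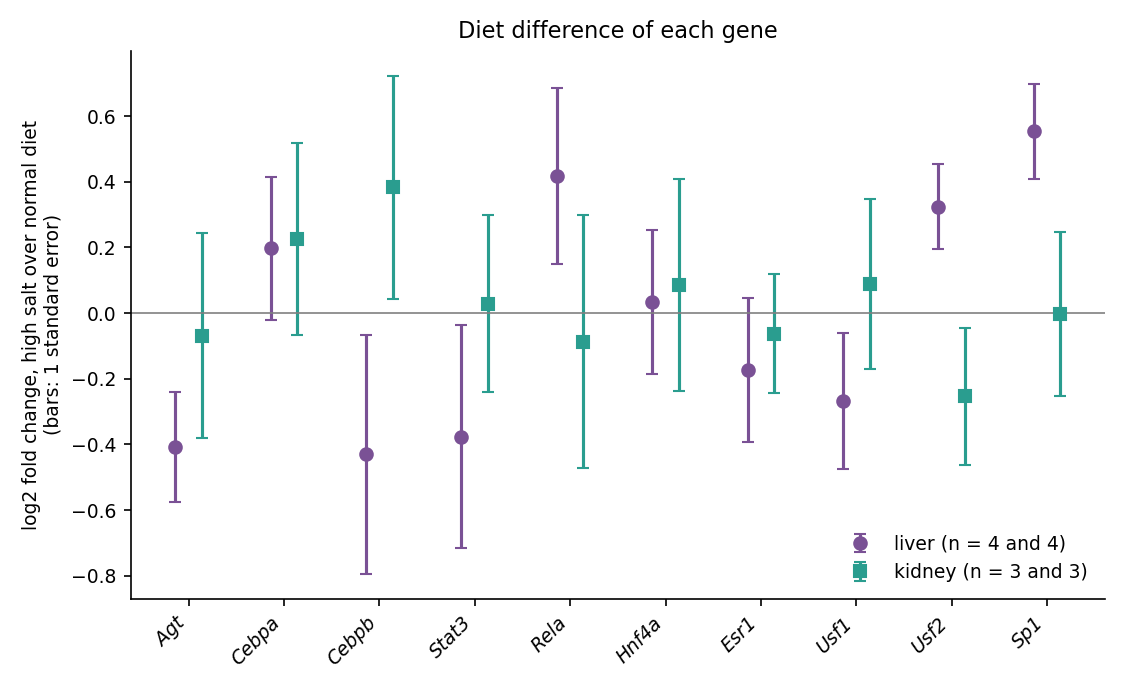
Difference between the diets (log2 of high salt over normal diet, with its standard error) for Agt and the 9 factors in liver and in kidney, each tissue fitted apart. In liver Sp1 (0.55), Rela (0.42) and Usf2 (0.32) lie above 0 by more than the standard error. Cebpb (-0.43), Agt (-0.41), Stat3 (-0.38) and Usf1 (-0.27) lie below 0 by more than theirs. None of them passed the edgeR test. In kidney the standard errors of all genes but Cebpb (0.38, SE 0.34) and Usf2 (-0.25, SE 0.21) reach across 0.

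Other genes of these pathways were taken from 9 lists with 94 different genes. In liver, 89 were tested, 0 rose and 1 fell (edgeR), where 0.595% of all genes rose and 0.41% fell. An unadjusted p under 0.05 was held by 21, where 21.2% of all genes had one. The gene that fell was Lifr, the receptor for leukemia inhibitory factor that signals through STAT3. Lifr was at 574, 381, 398 and 236 CPM on the normal diet and 153, 147, 191 and 119 CPM on high salt. The diets did not overlap, and the log2 difference was -1.38 (SE 0.27, edgeR adjusted p = 0.0483). It kept its direction in all 17 alternatives and passed in 6. Leaving out any 1 of normal diet libraries 1 and 2 or HS5 to HS8 gave edgeR adjusted p-values from 0.0552 to 0.203.

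The other 10 genes tested in the STAT3 list, among them the receptors Il6ra and Il6st, did not pass, and the list's median difference was 0.16. Of 24 other factors reported at angiotensinogen or liver promoters, 0 passed by edgeR. Above 0 lay 19 of them, where 48.0% of all genes did, and 7 had an unadjusted p under 0.05, where 21.2% did. Their median was 0.41, against -0.02 over all genes. In the NF-kappa-B list 8 of 11 genes lay below 0, with a median of -0.60, while Rela itself lay above 0. The smallest p there was that of Tnfaip3, which restrains NF-kappa-B (log2 difference -3.47, SE 1.27, edgeR adjusted p = 0.172). Its library 4 held 65.1 CPM and no other liver library held more than 1.97 CPM.

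In the remaining lists 0 genes passed by edgeR. Of the genes named below, DESeq2 called Mlx (adjusted p = 0.0419) and F7 (adjusted p = 0.0496), where it called 7.42% of all genes. The E-box partners had a median of 0.35 over 9 genes, and their smallest p was that of Mlx, which pairs with the carbohydrate response factor. Mlx was at 76.98, 80.9, 36.3 and 33.8 CPM on the normal diet and 28.1 to 31.6 CPM on high salt (log2 difference -0.94, SE 0.29, edgeR adjusted p = 0.132). Its 2 highest values were again in libraries 1 and 2. The SP and KLF family had a median of 0.39 over 6 genes, led by Klf13 (0.71, SE 0.27, edgeR adjusted p = 0.190). Estrogen receptor relatives and cofactors had a median of 0.46 over 6 genes, led by the corepressor Nrip1 (0.72, SE 0.25, edgeR adjusted p = 0.164).

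The C/EBP family and partners had a median of -0.26 over 7 genes, with the smallest p in the stress factor Atf4 (-0.49, SE 0.20, edgeR adjusted p = 0.209). The hepatocyte nuclear factor list had a median of 0.25 over 9 genes. The 12 targets of HNF4-alpha and C/EBP-alpha were evenly divided, with 6 above and 6 below 0 and a median of -0.05. Among them the clotting factor gene F7 had the smallest p (81.6 ± 11.8 CPM on the normal diet, 58.8 ± 5.65 on high salt, SD, n = 4 each; log2 difference -0.47, SE 0.15, edgeR adjusted p = 0.142).

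In kidney, none of the 9 factors passed (0 of 9, edgeR, where 0.0% of 15847 genes passed), and 0 had an unadjusted p under 0.05, where 2.01% of genes did. DESeq2 and limma on the deposited normalized values also called 0 members. The diets overlapped in all 9, where 6.92% of genes had diets apart. The members' median difference was 0.03, against -0.02 over all genes. Every adjusted p of a member in kidney was 0.9996 (edgeR), so only values and standard errors are given.

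Kidney Agt was at 27.2, 18.1 and 14.2 CPM in normal diet libraries 1 to 3 and at 16.4, 14.4 and 25.8 CPM in high salt libraries 1 to 3. Each diet held 1 library above 25 CPM (log2 difference -0.07, SE 0.31; two-sided exact permutation p = 0.8, where 3 against 3 cannot go below 0.1).

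Hnf4a was at 475, 238 and 223 CPM on the normal diet and 359, 279 and 357 CPM on high salt (log2 difference 0.09, SE 0.32). Cebpa, by contrast, was near the level of the least abundant members, at 11.3, 5.50 and 7.12 CPM on the normal diet and 10.8, 7.94 and 9.23 CPM on high salt (0.23, SE 0.29). In both genes the high salt values lay between normal diet library 1 and the other normal diet libraries.

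The cytokine factors were low in kidney. Cebpb was at 3.90, 2.17 and 2.52 CPM on the normal diet and 3.66, 2.65 and 4.86 CPM on high salt (log2 difference 0.38, SE 0.34). Stat3 was at 20.3, 10.8 and 12.5 CPM on the normal diet and 15.9, 12.7 and 15.96 CPM on high salt (0.03, SE 0.27). Rela was at 9.59, 4.68 and 3.58 CPM on the normal diet and 5.98, 4.16 and 6.64 CPM on high salt (-0.09, SE 0.39). None of the 3 separated the diets.

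For the broad factors, Usf1 was at 7.59, 8.43 and 10.7 CPM on the normal diet and 6.79, 10.3 and 11.4 CPM on high salt (log2 difference 0.09, SE 0.26). Usf2 was at 24.6, 18.9 and 18.3 CPM on the normal diet and 15.7, 15.8 and 20.3 CPM on high salt (-0.25, SE 0.21). Sp1 was at 35.9, 22.8 and 21.98 CPM on the normal diet and 31.2, 22.1 and 27.2 CPM on high salt (-0.0025, SE 0.25). The sign that Usf2 showed in liver was thus not the sign in kidney, and Sp1 in kidney lay at 0.

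Esr1 varied least of the members in kidney, from 11.8 to 14.2 CPM over the 6 libraries, a ratio of 1.21 between the highest and the lowest. It was at 14.2, 13.2 and 11.8 CPM on the normal diet and 12.9, 12.0 and 12.6 CPM on high salt (log2 difference -0.06, SE 0.18).

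In kidney, normal diet library 1 stood apart from libraries 2 and 3 (chi-square per gene 51.6 and 50.1), which differed little from each other (4.19). Normal diet library 1 was the highest of the 6 for 7 of the 9 members and for Agt, the exceptions being Cebpb and Usf1. The share of all genes that were highest in that library was not counted, so this is not shown to be particular to the members. Hnf4a was there 1.99 times and Rela 2.05 times the next normal diet library. The same library had the highest sum of tubule markers (5369 CPM, against 3372 and 3464 in normal diet libraries 2 and 3) and the lowest sum of immune markers (34.2 CPM, against 174 and 146). Lyz2 was the largest part of these immune sums (14.7 CPM, against 129 and 96.2). Ptprc, Adgre1, C1qa, Cd79a, S100a8 and S100a9 were also lowest there among the normal diet libraries, while Cd68, Itgam and Cd3e were not. The high salt libraries had 3439 to 4452 CPM of tubule markers and 56.5 to 89.5 CPM of immune markers. The part of these markers in the values of the members was not tested. Without library 1 the differences were 0.67 for Cebpb, 0.56 for Cebpa, 0.52 for Hnf4a and 0.45 for Rela, and 0 members passed (smallest edgeR adjusted p 0.278). Over all genes 0 of 16146 passed in that fit. An unadjusted p under 0.05 (edgeR) was held by 2627 of them, against 318 of 15847 genes with all libraries.

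**Figure D5:**
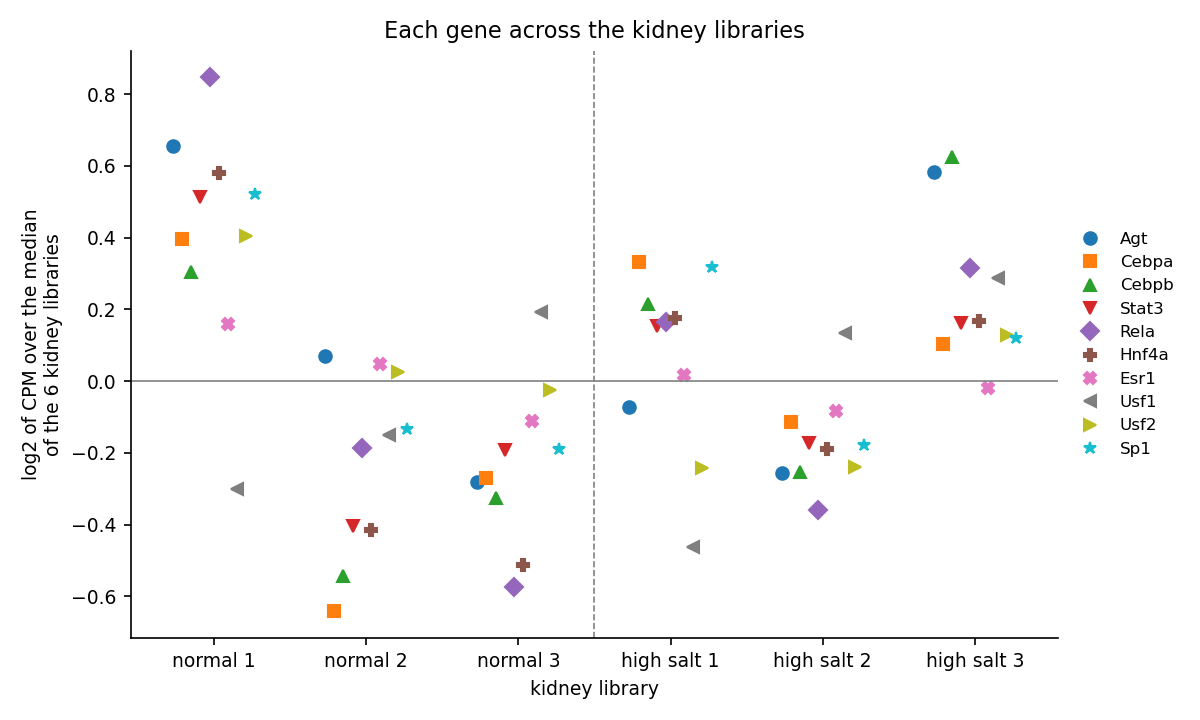
Agt and the 9 factors in each kidney library, as the log2 of CPM over the median of the 6 libraries, with the diets divided by the dashed line and points offset sideways. Most genes are highest in normal diet library 1, while Usf1 is below its median there.

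Of the 94 list genes 82 were tested in kidney, 0 passed (edgeR) and 3 had an unadjusted p under 0.05, where 2.01% of all genes did. The 22 other promoter factors tested had 7 above 0, where 46.3% of all genes lay above, and 15 below, with a median of -0.08. Lifr, the gene that fell in liver, was at 51.2 to 70.9 CPM on the normal diet and 51.9 to 54.7 CPM on high salt in kidney (log2 difference -0.18, SE 0.19).

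Whether a factor's response to high salt differed between the tissues was tested as an interaction, the liver difference minus the kidney difference. None of the 9 passed (0 of 9, edgeR, where 0.0% of 16633 genes passed), 1 had an unadjusted p under 0.05, where 10.1% of genes did, and DESeq2 called 0 members. That member was Usf2 (0.58, SE 0.24, edgeR adjusted p = 0.457). Sp1 followed with 0.57 (SE 0.28, edgeR adjusted p = 0.508), and Cebpb had -0.78 (SE 0.52, edgeR adjusted p = 0.620). Without liver normal diet library 4 the Cebpb interaction was -0.25, and without kidney normal diet library 1 that of Sp1 was 0.31. For Agt the interaction was -0.33 (SE 0.36, edgeR adjusted p = 0.771), and leaving out 1 library moved it between -0.62 (without kidney normal diet library 1) and -0.046 (without kidney high salt library 3). The different signs of Usf2 in the tissues are therefore not shown to differ.

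Last, for each factor the gene whose log2 CPM followed it most closely across the 8 liver libraries was found among 12184 genes. These libraries differ in diet and depth, which can move many genes together, so Pearson's r is given as a description only. Stat3 was nearest to Hmox1, heme oxygenase (r = 0.992). Sp1 was nearest to Pank2 (0.995), Rela to Pgs1 (0.992), Usf2 to the copper transporter Atp7b (0.979), Usf1 to Rpl19-ps6 (0.986) and Cebpb to Hps4 (0.977). Hnf4a was nearest to Pdxdc1 (0.973), Cebpa to Gas7 (0.968) and Esr1 to the receptor Kit (0.944). Rpl19-ps6 is named as a pseudogene, so its counts may be shared with its parent gene. Among the members, Cebpb and Stat3 had an r of 0.934 with each other and Hnf4a and Esr1 an r of 0.825. Hnf4a and Esr1 were both lower in libraries 1, 2, HS7 and HS8 than in any other liver library. With Agt, the members of the 4 largest sizes of r were Sp1, Usf2, Stat3 and Cebpb. Sp1 had an r of -0.75, Usf2 -0.68, Stat3 0.60 and Cebpb 0.57. The diets did not overlap in Agt, Sp1 or Usf2, so the r values of Sp1 and Usf2 also hold the diet differences given above. No r was computed within a diet. Agt, Stat3 and Cebpb were all at their highest liver value in normal diet library 4, and no r was computed without that library.

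By the files' coordinates on mm10, each the same as GENCODE M21, Agt lies at chr8:124556534-124569706 on the minus strand. Cebpa lies at chr7:35119293-35121928 (plus), Cebpb at chr2:167688915-167690418 (plus), Stat3 at chr11:100885098-100939540 (minus) and Rela at chr19:5637483-5648130 (plus). Hnf4a is at chr2:163506808-163572910 (plus), Esr1 at chr10:4611593-5005614 (plus), Usf1 at chr1:171411313-171419142 (plus), Usf2 at chr7:30945248-30956803 (minus) and Sp1 at chr15:102406143-102436404 (plus). Values are sums over all exons of each gene, so isoforms were not told apart.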

How the data were processed

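Liver and kidney libraries were made with a SMARTer mRNA kit from total RNA, per the labels' protocols. Samples were grouped by labelled tissue and diet, and columns were matched by name; 0 per-sample columns were left unused. Per the file headers, the values the authors deposited are expected counts per gene, estimated by expectation-maximisation in Partek. The submitters' processing notes also name Partek 7.0, STAR 2.5.3a, DESeq2 and mm10; the annotation release is not given in the sources used here. Whole numbers made up 58.2% of liver and 63.8% of kidney values. A normalized signal per gene was deposited as well, by a method not given in the sources used here, and served only as an alternative.

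After rounding, the quasi-likelihood test of edgeR 4.0.16 (R 4.3.3, TMM scaling, filterByExpr) was run per tissue for diet, and over 14 libraries for tissue and interaction, with no replicate block. Benjamini-Hochberg adjusted p-values under 0.05, over all genes tested, were called. CPM uses TMM library sizes. Fits were tested on simulated data. The members and lists were chosen with earlier results of these data known. Named were the members, Agt, and per list the genes called in a diet comparison or otherwise the one with the smallest liver p; some of these are not reported here. Alternatives were RLE scaling, DESeq2 1.42.0, limma 3.58.1 on the log2 of the deposited signal with pseudocounts of 1 and 0.1 (genes with a mean of at least 10), no filter, mitochondrial genes removed, all 14 libraries in 1 fit, HS5 and HS6 summed, liver libraries 1 and 2 left out, a replicate block, and each library left out. Replicate spread, not counting error, limits most values, and intervals cover counting error only. Lengths came from GENCODE M21, and 99.4% of the genes named in both had the same start there. Counts by transcript and strand were not used here, so overlapping and antisense genes cannot be told apart.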

Additional observations from a re-analysis of the deposited data

Results flagged for a closer look

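Of 38 liver groups of 4 libraries checked, 1 held a library far from the rest, where chance gives about 1 in 20 (1.9 groups). It was Tnfaip3 on the normal diet. Library 4 held 65.1 CPM, against 1.97, 1.28 and 1.16 CPM in libraries 1 to 3, and the gap to the next library was 0.987 of the group's range. This is the library with the highest Cebpb, Stat3 and Rela values in liver.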

How the results depend on the processing

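The count of members called was the same under every alternative in kidney and for the interaction (0). In liver DESeq2 called 1 (Sp1), and all other alternatives called 0. Between the tissues 6 to 7 members were called when 1 library was left out. Over all genes the calls ranged from 12 to 1122 in liver, where edgeR gave 152 and DESeq2 1122, from 0 to 11 in kidney (11 by DESeq2), from 0 to 145 for the interaction (145 by DESeq2) and from 7738 to 11014 between tissues.

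The following differences changed sign, all on the log2 scale and none of them called. All were under 0.5 in size but that of Tnfaip3 (-3.47), which turned without library 4. With libraries 1 and 2 left out of liver, Usf1 was 0.050 and Hnf4a -0.18. With HS5 and HS6 summed, liver Hnf4a was -0.061 and the Cebpa interaction 0.016. Kidney Sp1 was 0.046 on the deposited normalized values with either pseudocount, and 0.019 with the replicate block. Leaving out 1 library gave, in liver, -0.65 to 0.13 for Cebpb, -0.56 to 0.13 for Stat3, -0.27 to 0.016 for Esr1, -0.072 to 0.12 for Hnf4a and -3.86 to 0.071 for Tnfaip3. In kidney it gave -0.36 to 0.23 for Agt, -0.13 to 0.0041 for Esr1, -0.11 to 0.52 for Hnf4a, -0.35 to 0.45 for Rela, -0.13 to 0.26 for Sp1, -0.15 to 0.35 for Stat3 and -0.066 to 0.29 for Usf1. For the interaction it gave -0.36 to 0.19 for Cebpa, -0.17 to 0.089 for Esr1, -0.47 to 0.16 for Hnf4a and -0.69 to 0.11 for Stat3, and between tissues -0.24 to 0.027 for Esr1. The cause was not tested.

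Deviations from the group means of same-numbered kidney libraries of the 2 diets had correlations of 0.41, 0.37 and -0.09. Those of differently numbered kidney libraries lay between -0.47 and 0.39. Same-numbered liver and kidney libraries had -0.14, 0.14 and -0.18, and differently numbered ones -0.20 to 0.23. With so few libraries these values cannot decide whether the numbers pair the samples, and no label says that they do. With the replicate block 0 members and 0 genes were called in kidney, and between tissues 6 members and 7738 genes (10823 without it), with Hnf4a at -1.05 (edgeR adjusted p = 0.0920). No paired analysis was possible for the liver diets or the interaction because the high salt liver columns carry no titled number.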
